A study of Mus musculus with 24 samples.

Results

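Oxidative phosphorylation is the pathway by which mitochondria turn the electrons of NADH and succinate into ATP. Complex I (NADH dehydrogenase) and complex II (succinate dehydrogenase) pass electrons to ubiquinone, complex III hands them on to cytochrome c, complex IV (cytochrome c oxidase) reduces oxygen, and complex V (ATP synthase) uses the proton gradient to make ATP. Most subunits are encoded in the nucleus and imported, while a small core set is encoded in the mitochondrial genome. In the spleen these genes are expressed in all nucleated cells, and their level is known to vary with cell growth and cell type. The nuclear-encoded subunits described here were taken by name, as the rows of the expression table whose gene symbol begins in the way usual for subunits of the complexes (Nduf, Sdh, Uqcr, Cox or Atp5 and the letters that follow), without pseudogenes marked "-ps", and with a mean regularized log2 value (rlog) of at least 3.32, the log2 of 10 reads. Of 46078 rows, 87 fitted the names, 4 of them were marked as pseudogenes and 5 lay under the minimum, which left 78 genes. These are 35 subunits of complex I, 4 of complex II, 8 of complex III, 11 of complex IV, 15 of complex V and 5 genes that bear such names but act elsewhere or whose place is less clear (Ndufa4, Ndufa4l2, Cox7a2l, Atp5s and Atp5sl). The gene just above the minimum was Cox6a2 with a mean rlog of 4.16, and the gene just below it was Cox7a1 with 2.25. Cox8b (0.90), Cox8c (-3.54), Cox7b2 (0) and another row named Uqcrc1 (0) were lower still.

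The RNA came from the spleens of 24 male C57BL/6J mice that were 20 weeks old, 6 in each of 4 groups, taken at the end of treatment. Every mouse, controls included, carried B-cell acute lymphoblastic leukemia (B-ALL) from implanted syngeneic leukemia cells that express BCR-ABL and GFP. FMD+VC mice received cycles of a fasting-mimicking diet together with vincristine, a drug that blocks microtubule assembly. VC mice received vincristine, FMD mice the diet and the vehicle of the drug, and CTRL mice regular food without restriction and vehicle. Each spleen is a mixture of leukemia cells, erythroid precursors and the normal immune cells of the host, and each library is the RNA of the whole organ. The values are rlog values made by the authors from gene counts, 1 per mouse, so a difference of 1 is a doubling. Of the 46078 rows, 16557 with a mean rlog of at least 3.32 were compared between groups with limma, and a gene was called higher or lower at a Benjamini-Hochberg adjusted p under 0.05 over these 16557.

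The mixture of cells differed between the groups. Over all genes tested, 20% were lower and 19.5% higher in FMD+VC than in CTRL spleens. All 15 cell cycle genes of a marker list were lower in FMD+VC than in CTRL spleens, and their mean rlog lay between 9.42 and 10.28 in FMD+VC and between 10.34 and 12 in CTRL mice, without overlap. The 8 mature B cell markers were all higher (means of 11.74 to 12.48 in FMD+VC, 9.58 to 10.55 in CTRL) and so were 8 of 10 T cell markers (9.46 to 10.39 against 7.52 to 8.91). Of 12 erythroid markers 6 were lower (means of 7.43 to 10.03 against 8.18 to 13.40), of 8 neutrophil markers 5 were lower (4.99 to 7.82 against 6.44 to 8.56), of 8 pre-B cell markers 3 were lower (5.79 to 7.87 against 5.99 to 7.53) and of 9 macrophage markers none passed the test (9.05 to 10.51 against 9.35 to 10.74). Xist, the RNA that coats the inactive X chromosome in female cells, lay between 10.45 and 12.99 in FMD+VC and between 13.88 and 15.68 in CTRL mice, although all mice are labelled male. CTRL mouse 32 stood apart, with the highest erythroid mean (13.40) and the highest cell cycle mean (12) of all 24 mice. Of 5 markers each of muscle, fat and exocrine pancreas, 3, 4 and 4 were under the minimum. The 1 fat marker tested, Fabp4, which endothelial cells and macrophages also express, fell in FMD+VC (4.21 to 5.63 in FMD+VC, 5.19 to 7.30 in CTRL, log2 fold change -1.18), and its part in the results was not tested.

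In FMD+VC spleens, the mean over the subunits of each of the 5 complexes was lower than in CTRL spleens, by modest amounts and with overlap. Each complex had at least 1 gene that fell, but complex III kept none without CTRL mouse 32. Of the 78 genes 17 fell and 1 rose (23.1% called), beside 39.5% called over all 16557 genes. The share that fell was 21.8%, near the 20% of all genes that fell, and the share that rose was 1.28%, beside 19.5% of all genes. At an unadjusted p under 0.05 there were 29, beside 49.1% of all genes. The median log2 fold change of the 78 genes was -0.21, against -0.03 for all genes tested, and 66 of 78 (84.6%) had a fold change below 0, against 52.9% of all genes. The mean rlog over the 78 genes was 8.68 ± 0.14 (SD, n = 6 mice) in FMD+VC, 8.74 ± 0.20 in VC, 8.80 ± 0.15 in FMD and 8.89 ± 0.23 in CTRL. In bulk tissue, fewer cells rich in these RNAs and less of these RNAs per cell cannot be told apart.

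**Figure D1:**
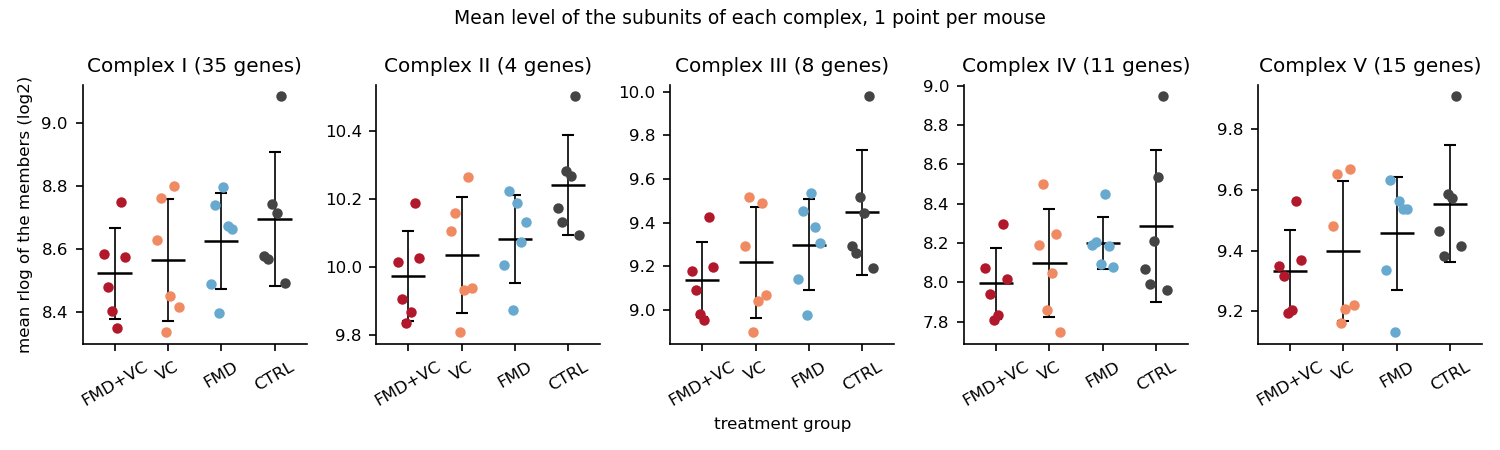
Mean rlog (log2) over the subunits of each complex in the 4 treatment groups, with 1 point per mouse, the group mean as a line and the SD as an error bar (n = 6). In every complex the FMD+VC mean is lowest and the CTRL mean highest, the groups overlap, and CTRL mouse 32 lies above all others.

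The groups overlapped in the mean of every complex. Over the 35 subunits of complex I, FMD+VC mice lay between 8.35 and 8.75 with a median of 8.53 and CTRL mice between 8.49 and 9.09 with a median of 8.65. Over the 8 subunits of complex III the ranges were 8.95 to 9.42 (median 9.14) in FMD+VC and 9.19 to 9.98 (median 9.37) in CTRL. Within each group, single mice were high or low for most of the genes together. CTRL mouse 32 had the highest value of its group for 66 of the 78 genes, and FMD+VC mouse 45 for 68. FMD+VC mouse 42 was the lowest of its group for 42, VC mouse 17 for 40, FMD mouse 9 for 47 and CTRL mouse 33 for 40. The same 4 mice had the highest share of Gm26917, a noncoding gene model, in their groups, at 30.1%, 25.5%, 30.4% and 25.6% of the summed expression of the rows tested (2 to the power of the rlog), where the other 20 mice had 9.73% to 22.9%. Without these 4 mice 18 of the 78 genes fell and 1 rose, beside 17.8% of all genes that fell, and the median log2 fold change was -0.21. The values of 4 genes did not overlap between FMD+VC and CTRL, all lower in FMD+VC (Sdhd, Ndufs1, Atp5f1 and Ndufb2, which itself was not called), beside 9.62% of all genes that did not overlap and were lower and 10.8% that were higher. Without CTRL mouse 32 the number of genes that fell was 8, beside 18.5% of all genes, and none rose, and the median log2 fold change was -0.13. The 8 were Sdhd, Ndufs1, Ndufv1, Ndufc2, Cox6c, Atp5a1, Atp5b and Atp5f1.

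**Figure D2:**
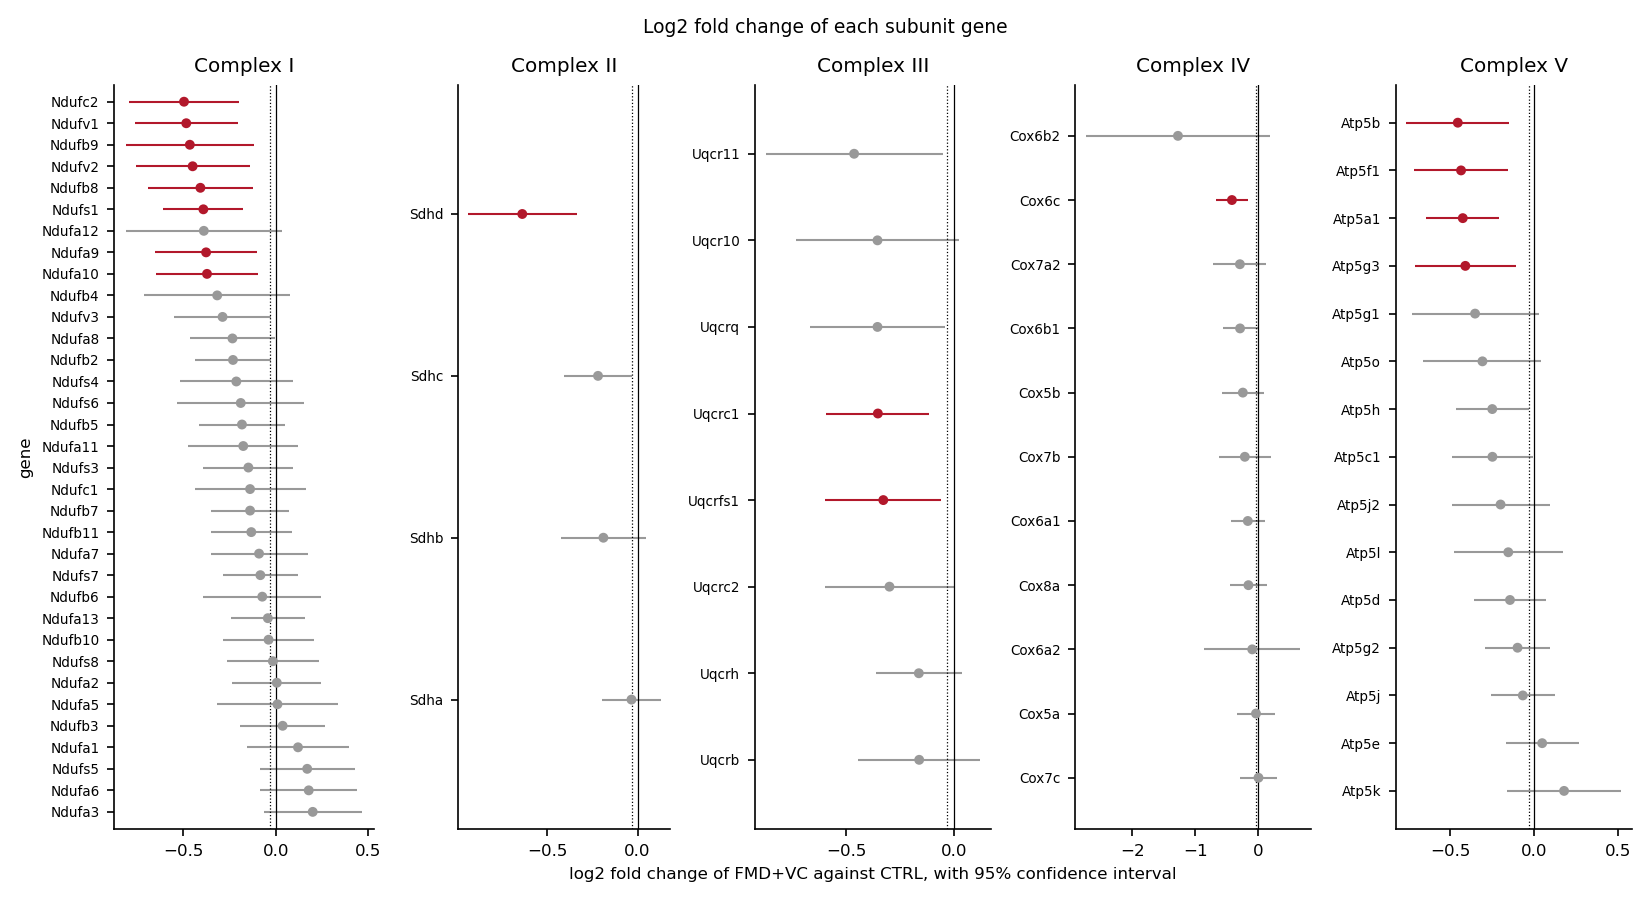
Log2 fold change of FMD+VC against CTRL for 72 subunits of complexes I to V, sorted within each complex, with 95% confidence intervals from limma. Each panel has its own scale, red marks the 16 plotted genes that fell (adjusted p under 0.05), grey the others, the solid line is 0 and the dotted line the median of all genes tested (-0.03).

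Complex I takes electrons from NADH through a peripheral arm of flavin and iron-sulfur subunits, and passes them to ubiquinone where this arm meets the membrane arm. The 3 core subunits of the NADH-binding end all fell in FMD+VC (Ndufv1, Ndufv2 and Ndufs1). Of 16 accessory subunits 2 fell (Ndufa9 and Ndufa10), and of 12 accessory subunits of the Ndufb and Ndufc series, which sit in the membrane arm, 3 fell (Ndufb8, Ndufb9 and Ndufc2). None of the 35 rose. Ndufv1 (chromosome 19, 4007384 to 4012806, minus strand, GRCm38), which binds NADH and the flavin, had rlog values of 9.50 to 9.89 with a median of 9.66 in FMD+VC and of 9.87 to 10.84 with a median of 10.002 in CTRL mice. The highest FMD+VC mouse, 45, reached just past the lowest CTRL mouse. The log2 fold change was -0.48 (standard error, SE, 0.13, adjusted p = 0.0073 in limma). Ndufs1 (chromosome 1, 63143596 to 63176833, minus strand), the largest iron-sulfur subunit, had values of 9.90 to 10.14 (median 9.99) in FMD+VC and of 10.20 to 10.91 (median 10.32) in CTRL, and the groups did not overlap. Its log2 fold change was -0.39 (SE 0.10, adjusted p = 0.0056). Part of its exons overlaps Eef1b2 and Ino80dos on the other strand, and no source used here says whether counting went by strand. Ndufv2, an iron-sulfur subunit beside Ndufv1, had a log2 fold change of -0.45 (adjusted p = 0.0205, and 0.0549 without CTRL mouse 32). Ndufs3, Ndufs7 and Ndufs8, other core subunits, did not pass, with log2 fold changes of -0.15, -0.08 and -0.02. The subunits that were not called had log2 fold changes between -0.39 (Ndufa12) and 0.20 (Ndufa3).

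Complex II is made of a head that oxidizes succinate (the flavoprotein Sdha and the iron-sulfur protein Sdhb) and a membrane anchor (Sdhc and Sdhd) that holds the quinone site, and it has no subunit from the mitochondrial genome. The gene with the smallest adjusted p of all 78 was Sdhd. Sdhd (chromosome 9, 50596357 to 50603812, minus strand) had rlog values of 9.20 to 9.78 (median 9.37) in FMD+VC, of 9.24 to 10.01 (median 9.68) in VC, of 9.38 to 10.05 (median 9.87) in FMD and of 9.81 to 10.35 (median 10.03) in CTRL mice. No FMD+VC mouse reached a CTRL mouse, and the VC mice lay on both sides, at 9.98, 10.01, 9.24, 9.39, 9.98 and 9.35 (mice 13, 14, 17, 18, 37 and 41). The log2 fold change of FMD+VC against CTRL was -0.64 (SE 0.15, adjusted p = 0.00186), so that the level fell by 35.7%, and it stayed called without any single mouse (highest adjusted p 0.00558). Sdha, the catalytic flavoprotein, had values of 11.29 to 11.60 (median 11.50) in FMD+VC and of 11.41 to 11.78 (median 11.49) in CTRL, with wide overlap. Its log2 fold change was -0.03 (95% confidence interval -0.20 to 0.13, adjusted p = 0.753). Sdhb was at -0.19 on the log2 scale (adjusted p = 0.188) and Sdhc at -0.22 (adjusted p = 0.0594). The difference between Sdhd and the other subunits was not tested.

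The promoters of 3 complex II genes are shown, those of Sdhd, which fell, and of the head genes Sdha and Sdhb, without that of Sdhc. Whether their fold changes differ, or go with these promoters, was not tested. Each is the 150 bases before the RefSeq start (GRCm38.p6), written 5′ to 3′ on the strand of the gene, with matches to known motifs of respiratory genes in capitals.
Sdhd, chr9:50603850-50603999, minus strand: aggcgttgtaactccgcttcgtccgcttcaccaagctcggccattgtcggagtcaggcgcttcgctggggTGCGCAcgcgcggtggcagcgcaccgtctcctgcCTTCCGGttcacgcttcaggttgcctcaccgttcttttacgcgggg
Sdhb, chr4:140961121-140961270, plus strand: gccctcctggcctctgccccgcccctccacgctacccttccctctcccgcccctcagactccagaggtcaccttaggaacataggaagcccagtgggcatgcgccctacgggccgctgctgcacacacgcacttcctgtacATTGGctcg
Sdha, chr13:74350241-74350390, minus strand: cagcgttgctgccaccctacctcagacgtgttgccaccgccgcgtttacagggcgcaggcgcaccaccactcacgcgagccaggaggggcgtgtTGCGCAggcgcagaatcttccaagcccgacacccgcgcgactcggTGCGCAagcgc
The Sdhd stretch holds 1 match to the NRF1 core TGCGCA, which reads alike on both strands, and 1 to the ETS motif CCGGAAG, here as its reverse CTTCCGG. The Sdha stretch holds 2 NRF1 matches, and the Sdhb stretch a CCAAT box on the other strand (ATTGG). NRF1 and the ETS factor GABPA are known regulators of respiratory chain genes. Windows from 250 bases before to 50 after the start were searched on both strands. The NRF1 core was found in 17 of the 63 subunit genes matched by symbol in the RefSeq promoter table (27%), beside 8.79% of 27025 genes. These 27025 are all genes of that table, without a minimum level in the spleen. Shares over the genes tested here were not computed, so a higher share is not shown to be particular to the subunits. The ETS motif was in 16 (25.4%, beside 9.93%), the YY1 motif AAGATGG in 10 (15.9%, beside 7.28%) and CCAAT in 27 (42.9%, beside 41.1%). Of the 11 matched genes that fell, 4 held the NRF1 core (Sdhd, Uqcrc1, Ndufa9 and Ndufb8) and 1 the ETS motif (Sdhd), and of the other 52 there were 13 and 15. The matches printed do not overlap each other. A match is a run of letters and not a measured binding site.

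Complex III had the lowest median log2 fold change of the 5 complexes (-0.34), and all 8 of its subunits were below 0, with 2 of them called. Uqcrc1 (chromosome 9, 108936633 to 108949623, plus strand), a core protein on the matrix side, had values of 10.30 to 10.63 (median 10.42) in FMD+VC and of 10.60 to 11.31 (median 10.68) in CTRL mice. The groups overlapped at their edges, and CTRL mouse 32 (11.31) lay far above the next (10.81). The log2 fold change was -0.35 (SE 0.12, adjusted p = 0.0191, and 0.0512 without CTRL mouse 32). Uqcrfs1 (chromosome 13, 30540308 to 30545362, minus strand), the Rieske iron-sulfur protein, had values of 9.65 to 10.14 (median 9.91) in FMD+VC and of 9.97 to 10.91 (median 10.11) in CTRL. The groups overlapped, the log2 fold change was -0.33 (SE 0.13, adjusted p = 0.0496), and the call was kept in 4 of the 12 fits that left out 1 mouse, with an adjusted p of up to 0.140. The small accessory subunits did not pass, at log2 fold changes down to -0.46 (Uqcr11).

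Complex IV had 1 gene called among 11 nuclear subunits, all of them accessory, since its catalytic subunits are encoded in the mitochondria. Cox6c (chromosome 15, 35925886 to 35938246, minus strand) had values of 9.78 to 10.17 (median 9.98) in FMD+VC and of 10.09 to 10.78 (median 10.36) in CTRL mice. Only the highest FMD+VC mouse lay above the lowest CTRL mouse. The log2 fold change was -0.42 (SE 0.12, adjusted p = 0.0099). Its exons share bases with Vps13b on the other strand. The lowest log2 fold change of all 78 genes was that of Cox6b2 (chromosome 7, 4751792 to 4753094, minus strand), known as a testis isoform of the subunit that Cox6b1 makes in most tissues. Cox6b2 was at 4.15 to 4.88 (median 4.42) in FMD+VC, 4.31 to 6.53 (median 5.01) in VC, 3.94 to 8.09 (median 5.33) in FMD and 4.23 to 8.92 (median 4.94) in CTRL mice. The groups overlapped and the log2 fold change of -1.27 did not pass (SE 0.70, adjusted p = 0.152). The spread came from single mice. Cox6b2 was at 8.92 and 6.86 in CTRL mice 32 and 25, at 8.09 and 7.75 in FMD mice 11 and 9 and at 6.53 in VC mouse 14, whose erythroid means were 13.40, 12.003, 11.74, 11.51 and 11.999. Every other mouse had a Cox6b2 value of at most 5.40 and an erythroid mean of at most 10.50, and whether erythroid cells were the source was not tested.

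Complex V joins the catalytic F1 head to the membrane part FO by a rotor and a side stalk. Of the 5 F1 subunits 2 fell, the alpha subunit Atp5a1 and the catalytic beta subunit Atp5b, and of the 10 FO and stalk subunits 2 fell, the side stalk subunit Atp5f1 and Atp5g3, which encodes the ring subunit c. Atp5a1 had values of 12.51 to 13.00 (median 12.68) in FMD+VC and of 12.97 to 13.46 (median 13.09) in CTRL mice. Of the FMD+VC mice only mouse 45 reached the range of CTRL. The log2 fold change was -0.43 (SE 0.11, adjusted p = 0.0034). Atp5f1 (chromosome 3, 105942698 to 105960099, minus strand) had values of 10.18 to 10.57 (median 10.39) in FMD+VC and of 10.65 to 11.29 (median 10.73) in CTRL, without overlap. Its log2 fold change was -0.44 (SE 0.13, adjusted p = 0.0139). Exons of Atp5a1 overlap Haus1, and those of Atp5f1 overlap Wdr77, on the other strand. Atp5b had a log2 fold change of -0.45 (adjusted p = 0.0185, and 0.0466 without CTRL mouse 32).

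Of the 5 genes with such names that were not counted with a complex, 2 had a fold change above 0 and 3 below. Atp5sl (chromosome 7, 25619414 to 25625551, plus strand), also called Dmac2, encodes an assembly factor of complex I in spite of its name, and it was the 1 gene of the 78 that rose in FMD+VC. Its values were 8.66 to 9.36 (median 9.07) in FMD+VC and 8.07 to 8.80 (median 8.70) in CTRL mice. FMD+VC mouse 45 lay within the CTRL range and the other 5 above it. The log2 fold change was 0.46 (SE 0.17, adjusted p = 0.0325), and the call was kept in 8 of the 12 fits that left out 1 mouse. Cox7a2l, named for complex IV, missed the threshold at a log2 fold change of 0.20 (adjusted p = 0.0743). Ndufa4, a subunit of complex IV in spite of its name, its paralog Ndufa4l2 and Atp5s were at -0.17, -0.28 and -0.28 and did not pass.

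**Figure D3:**
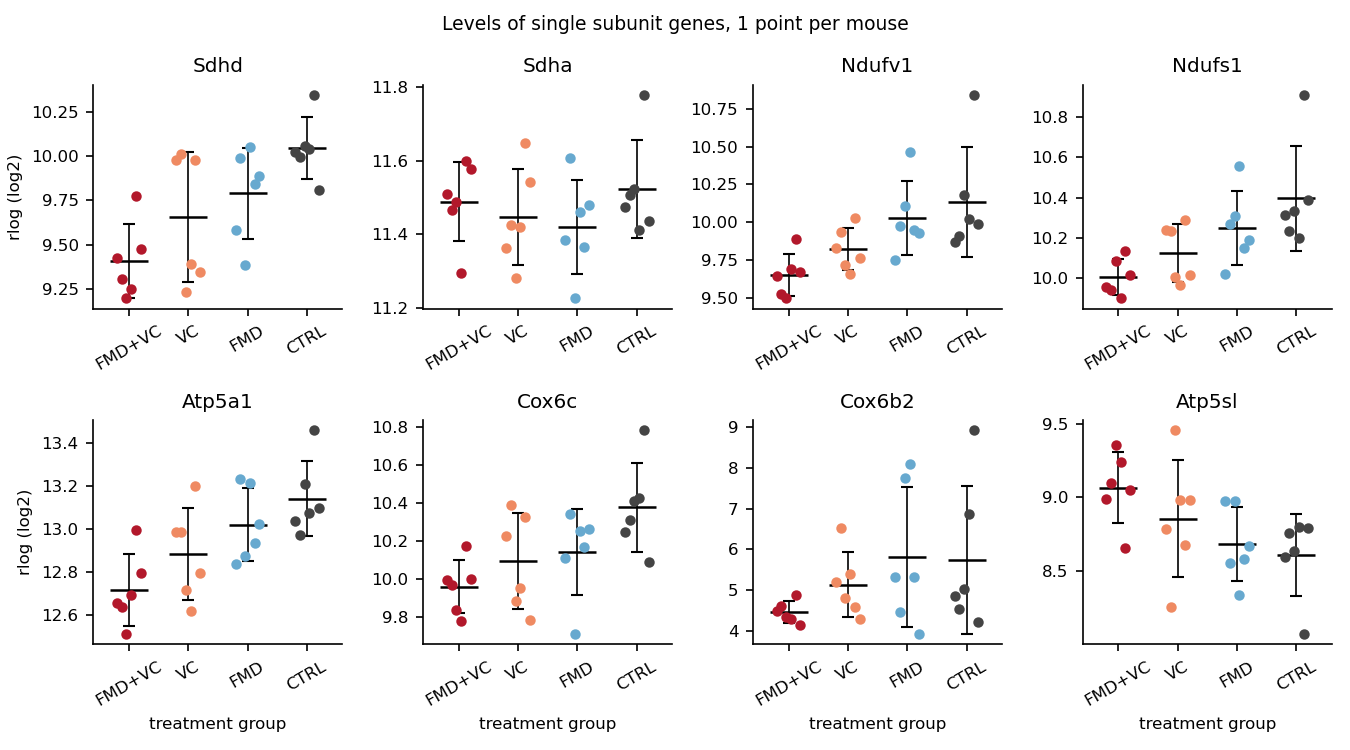
Rlog (log2) of 8 genes in the 4 treatment groups, with 1 point per mouse, the group mean as a line and the SD as an error bar (n = 6), each panel with its own scale. Sdhd and Ndufs1 of FMD+VC mice lie below all CTRL mice, Sdha overlaps throughout, Cox6b2 is spread by 5 mice of the other groups, and Atp5sl is higher in FMD+VC.

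The group means of the cell cycle genes and of Xist had the same order as those of the subunits. So did the erythroid markers (8.25 in FMD+VC, 9.23 in VC, 9.72 in FMD, 10.31 in CTRL) and the pre-B cell markers. Mature B and T cell markers had the reverse order. Within a group Xist could go the other way. CTRL mouse 32 had the highest mean over the 78 genes (9.30) and the lowest Xist (13.88) of its group. When the mean of the 15 cell cycle genes was added to the model as a covariate, 0 of the 78 genes passed in FMD+VC against CTRL, beside 0.399% of all genes, and the median log2 fold change was 0.15, against 0.02 for all genes. With Xist as the covariate, 0 passed, beside 0% of all genes, and the median was 0.02, against -0.01 for all genes. With both covariates the calls were lost over nearly all genes and not over the subunits alone. With the mean of the 12 erythroid markers, 3 still fell (Sdhd, Ndufs1 and Atp5a1), beside 33.4% of all genes called, and the median was -0.09, against -0.01 for all genes. These covariates differ between the groups themselves, and neither cell cycle genes nor Xist overlap between FMD+VC and CTRL, so their part and that of the treatment cannot be told apart. FMD+VC mouse 45, with the highest mean over the 78 genes in its group (8.92), also had the highest cell cycle mean (10.28) and the highest Xist (12.99) there. Without FMD+VC mouse 45 the number of genes that fell was 21, beside 20.6% of all genes.

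**Figure D4:**
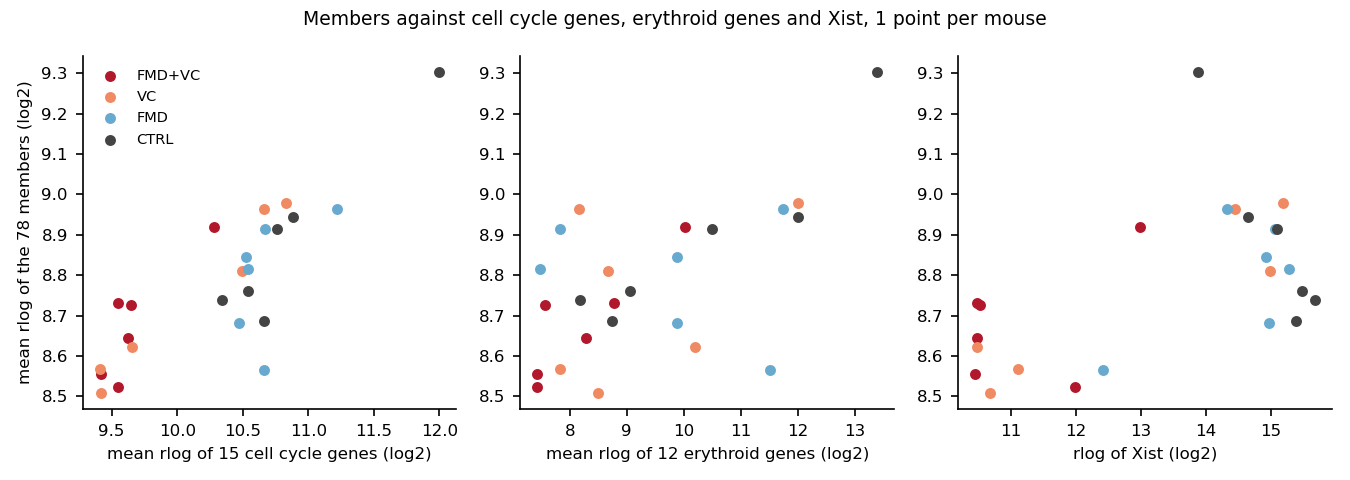
Mean rlog (log2) over the 78 subunit genes of each mouse against the mean of 15 cell cycle genes, the mean of 12 erythroid genes and Xist, with 1 point per mouse coloured by group. FMD+VC mice lie at the low end of cell cycle genes (9.42 to 10.28) and Xist (10.45 to 12.99), and VC mice lie on both ends.

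VC spleens against CTRL spleens showed no call among the 78 genes in limma, beside 6.45% called over all genes, and 16 genes had an unadjusted p under 0.05 (28% of all genes did), each with a fold change below 0. The median log2 fold change was -0.16, against -0.02 for all genes tested. The smallest adjusted p were those of Atp5f1 (log2 fold change -0.36, 95% confidence interval -0.64 to -0.08, adjusted p = 0.0927) and Sdhd (-0.39, interval -0.69 to -0.09, adjusted p = 0.0936). The VC group was wide. Over the 78 genes, mice 13, 14, 17, 18, 37 and 41 had means of 8.81, 8.98, 8.51, 8.62, 8.96 and 8.57. In the same order, cell cycle means were 10.49, 10.83, 9.42, 9.65, 10.66 and 9.41. Xist values were 14.98, 15.20, 10.68, 10.48, 14.45 and 11.11. The VC mice low in the subunits had cell cycle and Xist values near those of FMD+VC mice, and those high in the subunits had values near those of CTRL mice. When VC mouse 14 was left out, Sdhd and Atp5f1 fell, beside 7.6% of all genes, and when VC mouse 37 was left out, Ndufa10 was among the genes that fell, beside 4.87% of all genes.

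FMD spleens against CTRL spleens showed no call either, among the 78 genes or among all genes (0%), and 1 of the 78 had an unadjusted p under 0.05 in limma (Ndufa4l2, log2 fold change -0.41, adjusted p = 0.934), beside 4.27% of all genes. The median log2 fold change was -0.12, against -0.02 for all genes tested, and 58 of 78 genes were below 0. Sdhd had a log2 fold change of -0.25 and Ndufv1 of -0.11. Without CTRL mouse 32 the median was -0.04.

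FMD+VC spleens against VC spleens, the comparison that holds the drug constant, showed no call among the 78 genes or among all genes (0%) in limma. Of the 78 genes 1 had an unadjusted p under 0.05 (Ndufs5, log2 fold change 0.26, adjusted p = 0.434), beside 11.3% of all genes. The median log2 fold change was -0.06, against -0.01 for all genes. For Sdhd it was -0.25 with an adjusted p of 0.494, and for 66 of the 78 genes the 95% confidence interval lay within 0.5 of 0 on the log2 scale. In a fit that weighted each library by its spread around the group means, 13 of the 78 genes were lower and 1 was higher. Beside them 30% of all genes were called. These weights are not a measure of RNA quality and ran from 0.146 (CTRL mouse 32) to 7.29 (FMD+VC mouse 29). In the interaction, the effect of the diet with vincristine minus that without, 0 of the 78 genes passed and 0 had an unadjusted p under 0.05, beside 0% and 3.04% of all genes.

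FMD+VC spleens against FMD spleens showed 3 calls among the 78 genes (3.85%), beside 23.5% of all genes. Ndufv1 was at 9.50 to 9.89 in FMD+VC and at 9.75 to 10.47 in FMD mice and fell with a log2 fold change of -0.38 (SE 0.13, adjusted p = 0.0455). Atp5a1 was at 12.51 to 13.00 in FMD+VC and at 12.84 to 13.23 in FMD mice and fell with a log2 fold change of -0.30 (SE 0.11, adjusted p = 0.0412). Cox7a2l (chromosome 17, 83501918 to 83517330, minus strand) was at 9.60 to 9.99 in FMD+VC and at 9.38 to 9.67 in FMD mice and rose with a log2 fold change of 0.27 (SE 0.09, adjusted p = 0.0272). In each of the 3 genes the groups overlapped. The median over the 78 genes was -0.12, against -0.01 for all genes, and 10 genes had an unadjusted p under 0.05, beside 37.5% of all genes. Of the 12 fits that left out 1 mouse, 2 kept the call of Ndufv1 and 3 that of Atp5a1, with adjusted p of up to 0.127 and 0.0995, both without FMD mouse 11, and 7 kept that of Cox7a2l.

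Several subunits come in isoforms known from different tissues. For Cox6a, Cox7a and Cox8 the isoform of most tissues was the one with a mean well above the minimum. Cox6a1 was at 9.59 to 9.91 in FMD+VC and 9.56 to 10.54 in CTRL mice, while its heart and muscle isoform Cox6a2 was at 3.42 to 4.89 and 3.88 to 5.37. Cox7a2 was at 8.34 to 9.14 in FMD+VC and 8.61 to 10.10 in CTRL, while the muscle isoform Cox7a1 was at 1.88 to 2.62 and 1.75 to 2.51 and was not tested. Cox8a was at 8.50 to 9.11 in FMD+VC and 8.69 to 9.48 in CTRL, while Cox8b was at 0.54 to 1.15 and 0.74 to 1.11. None of those tested passed, and rlog values are not scaled by gene length, so the distance between isoforms is not a ratio of molecules. Cox6b1 had values of 9.63 to 10.05 in FMD+VC and 9.87 to 10.61 in CTRL and a log2 fold change of -0.29 (adjusted p = 0.0868). Its testis isoform Cox6b2 was also above the minimum, with a mean rlog of 5.29, and reached 8.92 in CTRL mouse 32. The 3 genes for the ring subunit c make the same mature protein. Atp5g3 was at 10.28 to 10.89 (median 10.51) in FMD+VC and at 10.76 to 11.26 (median 10.88) in CTRL mice and fell with a log2 fold change of -0.41 (SE 0.15, adjusted p = 0.0290, kept in 8 of 12 fits that left out 1 mouse). Atp5g1 was at 6.33 to 6.79 and 6.72 to 7.35 and missed the threshold (log2 fold change -0.35, adjusted p = 0.129), as did Atp5g2 at 6.62 to 7.09 and 6.86 to 7.03 (log2 fold change -0.10, adjusted p = 0.414). Reads that fit more than 1 of these near-identical copies, or their pseudogenes, may have been lost or split in the counting, so the levels of such families are uncertain.

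Genes that work with the nuclear subunits were described by lists. The counts stand beside 20% of all genes tested that fell and 19.5% that rose in FMD+VC against CTRL. Of 7 tested subunits or subunit partners that the naming rule missed, 2 fell in FMD+VC against CTRL. They were Cox4i1, the main isoform of complex IV subunit 4 (10.98 to 11.43 in FMD+VC, 11.23 to 11.88 in CTRL, log2 fold change -0.36, adjusted p = 0.0077), and Atpif1, the inhibitor of ATP synthase, also known from zebrafish for a role in heme synthesis (8.80 to 9.63 against 9.71 to 11.62, log2 fold change -1.10, adjusted p = 0.0089). Of 43 assembly factors 10 fell and 2 rose, with a median of -0.09. Among them Tmem70, needed for ATP synthase assembly, fell (-0.42, adjusted p = 0.0057), and so did Foxred1 for complex I (-0.25, adjusted p = 0.0133) and Sco1, which brings copper to complex IV (-0.25, adjusted p = 0.0286). Tmem126b, a complex I assembly factor, rose (0.40, adjusted p = 0.0007). Of 77 mitochondrial ribosome genes 14 fell and 1 rose (median -0.20), and of 13 citric acid cycle genes 5 fell and none rose (median -0.22). Both medians are close to that of the subunits, and the difference was not tested.

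**Figure D5:**
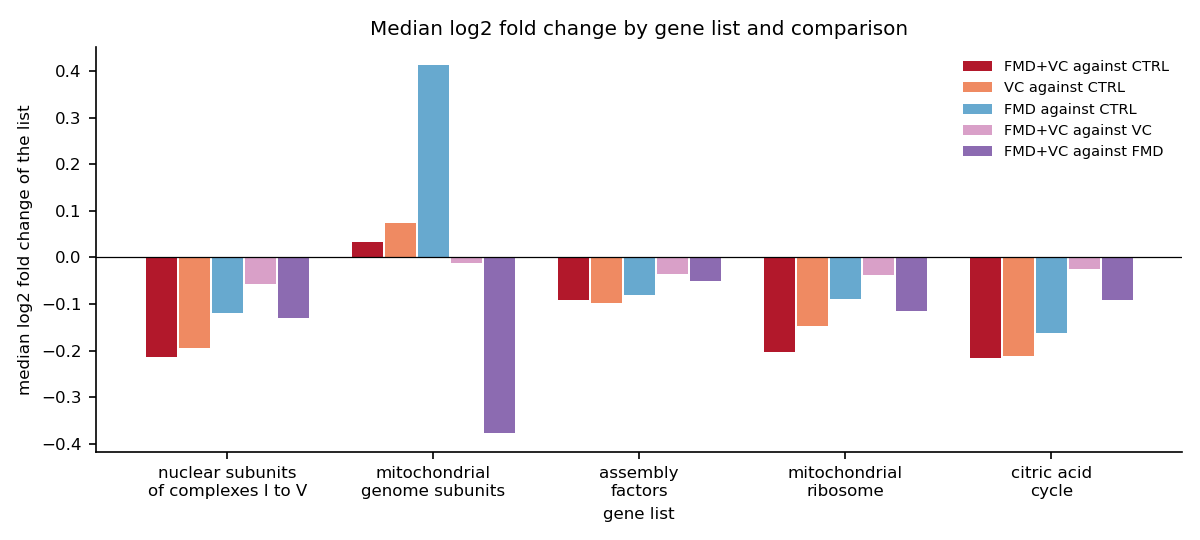
Median log2 fold change of the 73 nuclear subunits of complexes I to V and of 4 other gene lists in 5 comparisons, 1 bar per comparison, without error bars since a median over genes has no replicate. Subunits encoded in the mitochondrial genome stand at 0.03 in FMD+VC against CTRL and at 0.41 in FMD against CTRL, where the nuclear subunits are at -0.21 and -0.12. The mitochondrial genes had very unlike levels, and their median is uncertain.

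The subunits encoded in the mitochondrial genome had other medians than the nuclear ones, and the difference was not tested. In FMD+VC against CTRL, 0 of the 12 mitochondrial subunits tested passed in limma, beside 39.5% of all genes. None had an unadjusted p under 0.05, beside 49.1% of all genes, and the median log2 fold change was 0.03. In FMD against CTRL, 0 of the 12 passed and 8 had an unadjusted p under 0.05, beside 0% and 4.27% of all genes, with a median of 0.41. The 73 nuclear subunits had a median of -0.12 there and none with an unadjusted p under 0.05. In FMD+VC against FMD, mt-Nd5 fell (15.45 to 15.96 in FMD+VC, 15.77 to 16.51 in FMD, log2 fold change -0.45, adjusted p = 0.0282), as did mt-Nd1 (15.38 to 15.84 against 15.94 to 16.80, log2 fold change -0.57, adjusted p = 0.0478). Both encode membrane subunits of complex I, and 23.5% of all genes were called in that comparison. Of the 35 nuclear subunits of complex I only Ndufv1 fell there, and 2 of 12 fits that left out 1 mouse kept its call. These comparisons share groups, so their values are only set side by side.

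Of 13 regulators of mitochondrial gene expression, 2 rose and none fell in FMD+VC against CTRL, beside 19.5% and 20% of all genes. Of all genes tested, 10.8% had values higher in FMD+VC than in CTRL without overlap. Ppargc1a, the coactivator known for driving respiratory genes in muscle and brown fat, was at 4.69 to 5.22 (median 5.18) in FMD+VC and at 3.54 to 4.06 (median 3.84) in CTRL mice, without overlap, a log2 fold change of 1.27 (SE 0.25, adjusted p = 0.0006). It also rose in VC against CTRL (0.85, adjusted p = 0.0451) and in FMD+VC against FMD (1.04, adjusted p = 0.0065). Beside these calls, 6.45% and 23.5% of all genes were called. Esrra, the nuclear receptor that acts with it, was at 8.52 to 8.78 in FMD+VC and 7.92 to 8.47 in CTRL, without overlap, a log2 fold change of 0.35 (adjusted p = 0.0182). Nrf1 (-0.19, adjusted p = 0.213) and Gabpa (-0.13, adjusted p = 0.193), whose motifs were searched above, did not pass, nor did the mitochondrial transcription factor Tfam (0.16, adjusted p = 0.0632). In FMD+VC against FMD, Tfam rose (9.70 to 9.94 in FMD+VC, 9.51 to 9.76 in FMD, log2 fold change 0.18, adjusted p = 0.0499). This call lay at the threshold, and whether it held without single mice was not examined. Ppargc1a is a gene of few reads here, and rlog understates the change of such genes.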

How the data were processed

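Spleen RNA was depleted of ribosomal RNA and sequenced by the authors, 1 library per mouse. Per the labels and the supplementary methods, the authors mapped reads to GRCm38 with HISAT2 2.1.0, counted them with HTSeq 0.6.1 and transformed them with DESeq2. The annotation is named there as GRCh38, while the deposited symbols are those of mouse genes. The deposited values are log2 values, the rlog of DESeq2 as the authors made it. Without counts the depth of a library is unknown, precision comes from the spread between mice and the count test of the study was not run. The rlog draws genes of few reads toward their mean.

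The 16557 rows with a mean rlog of at least 3.32 went into 1 limma model (version 3.58.1, R 4.3.3) of the 4 groups and 24 mice, with moderated variances with a trend (eBayes), two-sided tests and Benjamini-Hochberg adjustment. The fit was tested on simulated data. Members and lists were chosen with earlier results of these data known. Named genes are, per complex, up to 2 that rose and 2 that fell with the smallest adjusted p in FMD+VC against CTRL, the highest and lowest fold change, calls of FMD against CTRL, of FMD+VC against VC or of the interaction (none) and fixed isoform sets. Cox7a2l, Ndufs5, Atp5s, Ndufv2, Ndufs3, Ndufs7, Ndufs8, Sdha, Sdhb, Sdhc and Atp5b were added after their values were seen, to show the remaining subunits of a group, and so were genes named at the ends of ranges. Other settings were no minimum, a minimum of 5.64 (log2 of 50), quantile normalization, centring, fits of only the groups compared, library weights, no trend, 3 covariates and leaving out each mouse. A fit without the mouse of each group highest in Gm26917 was added after seeing the data. The values of 1 member are not reported here, though counts and medians include it. Coordinates are those of GENCODE M21 (GRCm38), in which all 78 members were found and 28 share exon bases with another gene. Promoters are from RefSeq (GRCm38.p6, 63 of 78 members matched). The short motif forms of NRF1 and YY1 were chosen after longer forms had been searched. Python 3.11.15 with matplotlib 3.10.9 made the figures.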

Additional observations from a re-analysis of the deposited data

Results flagged for a closer look

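Single mice lay far from the rest of their group in 15 of 120 group and measure pairs examined. The measures were the means over the complexes and 24 named genes, in groups of 6. Chance alone gives about 1 in 20 where pairs are independent. These pairs are not, since single mice were high or low for most of the genes together, so the rates cannot be compared. CTRL mouse 32 accounted for 8 of the 15. It was the highest CTRL mouse for Ndufs1 (10.91, the next at 10.39), Ndufv1 (10.84, the next at 10.18), Uqcrc1 (11.31, the next at 10.81), Uqcrfs1 (10.91, the next at 10.24), Atp5f1 (11.29, the next at 10.84), Atp5b (13.92, the next at 13.15) and Sdha (11.78, the next at 11.52), and the lowest for Atp5sl (8.07, the next at 8.60). FMD mouse 11 was the highest FMD mouse for the mean of the complex IV genes (8.45, the next at 8.20) and for Uqcrfs1 (10.53, the next at 10.12). FMD mouse 9 was the lowest for Cox6c (9.71, the next at 10.11) and Atp5g1 (6.24, the next at 6.98). VC mouse 41 was the lowest for Cox6a2 (3.26, the next at 4.06), CTRL mouse 25 the highest for Cox6a2 (5.37, the next at 4.14) and VC mouse 17 the lowest for Cox8a (8.23, the next at 8.73).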

How the results depend on the processing

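No paired analysis was possible because the mouse numbers differ between the groups. For members higher, FMD+VC against CTRL (1), the count was 0 without a minimum and with the erythroid, cell cycle or Xist covariate, 2 with quantile normalization or centring and 6 with library weights. For members lower (17) it was 31 with library weights, 3 with the erythroid covariate and 0 with the cell cycle or Xist covariate. The median log2 fold change of members was 0.15 and 0.0181 with these last covariates. Of all genes, 33.4%, 0.399% and 0% were called in this comparison with the erythroid, cell cycle and Xist covariate. For VC against CTRL the median was 0.091 with the cell cycle covariate. For FMD+VC against VC, library weights gave 1 member higher and 13 lower, beside 30% of all genes called, and they gave 1 negative interaction. The share of all genes called with library weights was not computed for the other comparisons. Their counts with these weights cannot be read as particular to the subunits. For members higher, FMD+VC against FMD (1), the count was 0 without a minimum and with each covariate, and 2 in the fit of only the groups compared and with library weights. For members lower (2) it was 0 without a minimum, with centring and with each covariate, 5 in the fit of only the groups compared, 37 with library weights and 1 without a trend, and the median was 0.22 with the cell cycle and 0.12 with the Xist covariate. Leaving out single mice, members lower ranged from 8 to 21 and members higher from 0 to 1 in FMD+VC against CTRL (median -0.25 to -0.13). Members lower ranged from 0 to 2 in VC against CTRL (median -0.22 to -0.08) and from 0 to 5 in FMD+VC against FMD, with 0 to 2 higher (median -0.17 to -0.07). Counts stayed at 0 in FMD against CTRL (median -0.16 to -0.04), FMD+VC against VC (median -0.11 to -0.02) and the interaction. With the cell cycle covariate the sign turned, without a call, in FMD+VC against CTRL for Ndufv1 (0.0019), Ndufv2 (0.13), Uqcrc1 (0.0751), Uqcrfs1 (0.13), Atp5f1 (0.0339), Atp5b (0.14), Atp5g3 (0.064) and Atp5sl (-0.15), and in FMD+VC against FMD for Ndufv1 (0.0333) and Atp5a1 (0.0078). With Xist it turned for Atp5g3 (0.0019). The cause of these moves was not tested. Leaving out the mouse of each group with the highest Gm26917 share, an alternative chosen after seeing the data, moved no count of members past 1.5 times. In FMD+VC against CTRL it kept 16 of the 18 calls, without Ndufb9 and Uqcrfs1, and in FMD+VC against FMD 1 of 3, without Atp5a1 and Ndufv1. Of 2745 values of named genes under other settings, 87 lost and 40 gained a call, and 207 changed sign where neither fit made a call.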
